A study of Mus musculus with 8 samples.

Results

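The integrated stress response genes were followed through 10 named members: Atf4, Atf5, Ddit3, Nupr1, Asns, Psat1, Phgdh, Chac1, Sesn2 and Ppp1r15a. Every non-control probe of the array whose gene name equals a member was taken, which gave 13 probes of the 41174 on the array and 10 of its 28146 distinct gene labels: 1 for each gene except Sesn2, with 2, and Phgdh, with 3. Each probe was read apart, on all 8 arrays. The samples were livers of C57BL/6J mothers and of their male fetuses, collected on gestation day 18. Control mothers ate freely, and food-restricted (FR) mothers received 50% of the amount eaten by controls from day 10 to day 17. The arrays held 1 pair of maternal pools of 6 animals per diet, 1 pair of fetal pools of 6, and 2 pairs of fetal pools of 3, and each pair was measured on 2 arrays with the Cy3 and Cy5 dyes exchanged. All animals were of 1 strain and carried no named allele or drug. Per the labels, 2 male fetuses came from each of 6 mothers per diet. The labels do not say which mothers a pool drew on, so fetal pools may share mothers and the p-values below measure only the spread between pools. Array descriptions that mention rat hippocampus were set aside in favour of the titles, which name mouse liver and a single pool for the 2 exchanged arrays.

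The integrated stress response slows protein synthesis when cells lack amino acids, accumulate misfolded protein, are infected or lack heme. Each of these conditions activates a kinase that phosphorylates the translation initiation factor eIF2, and the mRNA of the transcription factor ATF4 is then translated better while most others are translated less. ATF4, often paired with a C/EBP factor, binds elements called CAREs near its target genes, whose products take up or make amino acids, break down glutathione or restore translation. Because ATF4 is controlled largely at translation, the level of its own mRNA is an incomplete readout of the response, and its target mRNAs are commonly read instead. In liver the response is known for its part in adapting to low protein supply.

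The 3 members whose diet response stood farthest from 0 were Nupr1, lower in fetuses, and Chac1 and Asns, higher in mothers. These were also the 3 members whose promoter window held the core letters of the CARE. The ranking took each gene in the tissue where it stood farthest from 0. By the maternal ratio alone it gave the same 3, with Nupr1 lower at -0.80. By the fetal mean alone Atf5 (-0.35) and Psat1 (0.28), which had no such core, stood farther than Asns (0.21) and Chac1 (-0.17). Nupr1, Chac1 and Asns are shown for that core. Each stretch is the 250 bases before the RefSeq transcription start (assembly GRCm38.p6), read along the gene's strand, with the CARE core in capitals. The Asns stretch is chr6:7693210-7693459 on the minus strand, the Chac1 stretch chr2:119350992-119351241 on the plus strand and the Nupr1 stretch chr7:126625471-126625720 on the minus strand.
Asns: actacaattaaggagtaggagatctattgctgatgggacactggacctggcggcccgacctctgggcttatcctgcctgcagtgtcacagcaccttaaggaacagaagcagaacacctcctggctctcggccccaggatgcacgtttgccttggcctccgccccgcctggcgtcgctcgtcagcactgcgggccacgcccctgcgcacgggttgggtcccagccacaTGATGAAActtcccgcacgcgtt
Chac1: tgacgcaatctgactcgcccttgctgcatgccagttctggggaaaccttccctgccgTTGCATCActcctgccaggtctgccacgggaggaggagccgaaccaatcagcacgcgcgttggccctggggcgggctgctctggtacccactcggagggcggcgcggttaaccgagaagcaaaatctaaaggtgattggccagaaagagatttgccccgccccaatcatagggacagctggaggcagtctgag
Nupr1: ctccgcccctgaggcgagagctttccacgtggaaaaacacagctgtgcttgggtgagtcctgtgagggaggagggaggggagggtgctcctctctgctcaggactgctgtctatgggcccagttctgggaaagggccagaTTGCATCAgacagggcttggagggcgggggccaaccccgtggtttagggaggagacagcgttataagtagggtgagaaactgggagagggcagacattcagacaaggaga
The search used the letters TGATGNAA on both strands. In Asns they began 23 bases before the start on the gene's own strand, as TGATGAAA. In Chac1 and Nupr1 the same letters lay on the other strand, read above as TTGCATCA, with the first base 193 and 110 bases before the start. All 10 members had a window, 12 windows in all because Atf5 and Psat1 had 2 starts each, and the remaining 9 windows held no match. Of all 32851 windows of 300 bases, which run from 250 before to 50 after a start, 3.97% held a match. The short core of the cyclic AMP response element, TGACG on either strand, was in the windows of 4 members (Atf4, Asns, Chac1 and Ppp1r15a) and in 20.8% of all windows. The 2 motifs differ in their letters and did not overlap in these windows. A match describes letters only, binding was not measured, and the match of these 3 genes with the 3 responses was not tested.

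In fetal liver most members stood near their control level under food restriction, and 1 of the 10 genes lay far from it: Nupr1 fell. Over the 3 fetal pool pairs, 1 of the 13 member probes was called higher (Asns) and 2 were called lower (Atf4 and Nupr1), by limma with Benjamini-Hochberg adjustment over all probes that passed and a threshold of 0.05. Over the whole array 10.9% of 30812 probes were called higher and 14.3% lower, so the members' shares of 7.69% and 15.4% lie near the background and say nothing particular about the members. All 13 member probes passed the filter in fetuses, which asked that at least 1 diet be well above background on each array used. Without the limit on adjusted p, 6 of the 13 had an unadjusted p under 0.05. The share of all probes with such a p was not computed, so this count says nothing particular about the members. The median over all probes was 0.00 on the log2 scale.

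**Figure D1:**
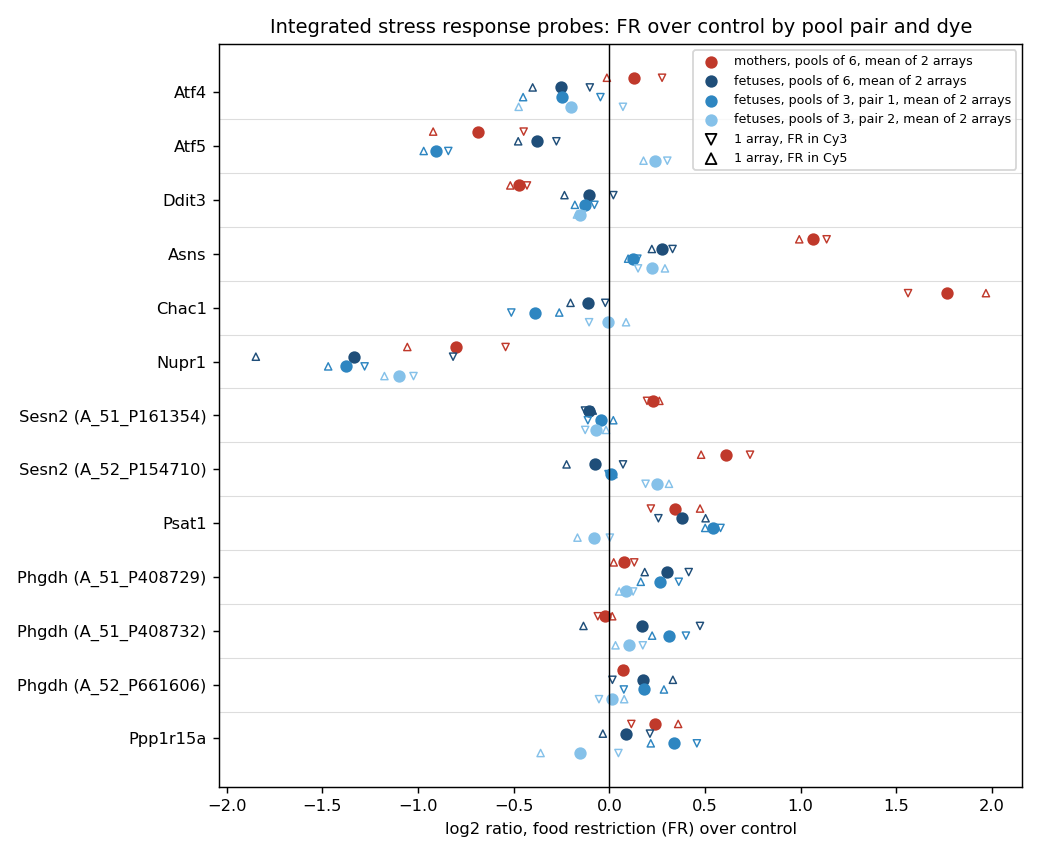
The horizontal axis gives the log2 ratio of food restriction (FR) over control for each of the 13 member probes (rows). Filled circles are the mean of the 2 dye-exchanged arrays of a pool pair (red, mothers; blues, the 3 fetal pairs) and open triangles are single arrays by dye. Chac1 and Asns in mothers lie to the right at 1.76 and 1.06, and Nupr1 lies to the left in all 4 pairs.

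Nupr1 encodes a small stress-induced chromatin protein that ATF4 is known to activate. Its probe (A_51_P519251, chr7:133766978-133767037 in mm9, minus strand) had log2 levels of 10.19 in the control fetal pool of 6 and 9.83 and 9.90 in the control pools of 3. The FR pools gave 8.86, 8.46 and 8.80. Every FR fetal pool lay below every control fetal pool. The fetal log2 ratio was -1.27 ± 0.15 (SD, n = 3 pool pairs), a level 2.41-fold higher in controls, with an adjusted p of 0.00441 from limma. The 6 fetal arrays ranged from -1.85 to -0.82, so the fall had 1 direction on every array and in both dye orientations. In mothers the log2 level was 9.44 in the control pool and 8.65 in the FR pool. The maternal ratio was -0.80, from -0.54 with FR in Cy3 and -1.06 with FR in Cy5, so only 1 of the 2 maternal arrays passed 2-fold. The maternal minus fetal difference of 0.47 (SE 0.14) was not called (adjusted p = 0.147). Livers are mixtures of cells, and fewer cells of a type cannot be told apart here from less RNA per cell.

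In the same fetal pools as Nupr1, markers of B lineage cells and granulocytes were lower. Of 9 B lineage markers 7 were called lower and none higher in FR fetuses, and the log2 of their summed level was 14.18 to 14.25 in control and 12.91 to 13.52 in FR fetal pools. Of 9 granulocyte markers 7 were called lower and none higher, with summed levels of 18.52 to 18.58 in control and 17.88 to 18.02 in FR fetal pools. From the control to the FR maternal pool the B lineage sum went from 11.29 to 10.97 and the granulocyte sum from 11.79 to 11.85. The maternal hepatocyte sum went from 19.64 to 19.38, the erythroid sum from 16.26 to 15.33 and the Kupffer cell sum from 15.24 to 14.73. Of 9 hepatocyte markers 5 were called lower in FR fetuses (Alb, Ttr, Trf, Fgb and Ahsg), with sums of 19.39 to 19.61 in control and 19.06 to 19.24 in FR. Of 10 erythroid markers 1 was called lower (Klf1), with sums of 18.37 to 18.87 in control and 18.76 to 19.12 in FR. Of 9 Kupffer cell markers 1 was called higher (Marco) and 3 lower (Clec4f, Emr1 and Cd68), with sums of 15.80 to 15.92 in control and 15.92 to 15.98 in FR. All of these markers were above background in fetuses. In mothers 7 of the B lineage, 6 of the granulocyte and 7 of the erythroid markers passed, and all of the hepatocyte and Kupffer cell markers. The maternal sums use the probes read in fetuses, so those of the first 3 lists include markers that did not pass in mothers. The part that a change in cell makeup has in the Nupr1 result was not tested.

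The genes whose pattern lay nearest to that of Nupr1 over the 8 arrays were Pnpla3, Blnk and Elovl6, of 21454 probes with a gene symbol compared. The measure was the root mean square of the difference in log2 ratio, which was 0.15 for Pnpla3, 0.18 for Blnk and 0.22 for Elovl6. Pnpla3 encodes a lipase of lipid droplets, with a fetal ratio of -1.28 and a maternal ratio of -0.93. Blnk, an adaptor of B cell receptor signalling that is 1 of the B lineage markers, had -1.27 and -0.69. Elovl6, which lengthens long-chain fatty acids, had -1.18 and -0.69.

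Atf4, the central transcription factor of the response, was slightly lower in FR fetuses. Its probe (A_52_P139727, chr15:80087079-80087138 in mm9, plus strand) has 1 forward reading frame without a stop codon. Its place in the transcript was not read from an annotation.
Atf4 probe: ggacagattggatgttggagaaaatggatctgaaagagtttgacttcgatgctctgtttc
The control fetal pools had log2 levels of 11.57, 11.84 and 11.75 and the FR pools 11.32, 11.59 and 11.55, and these ranges overlap. Within pairs the ratios were -0.25, -0.25 and -0.20, with a mean of -0.23 ± 0.03 (SD, n = 3) and an adjusted p of 0.0218 from limma. The 2 dyes did not give this value alike: with FR in Cy5 the 3 arrays ranged from -0.47 to -0.40, and with FR in Cy3 from -0.10 to 0.07. The small spread between pairs is that of means over the dyes. With the 6 arrays entered singly and the pool pair as a random block, the adjusted p was 0.0555. The call was also lost without the pair of pools of 6 (adjusted p = 0.114) and without the first pair of pools of 3 (adjusted p = 0.0774). Without loess the value was -0.38, and the call was lost there too (adjusted p = 0.0556). In mothers the ratio was 0.13, from 0.28 with FR in Cy3 and -0.01 with FR in Cy5.

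Atf5 and Ddit3, the other stress transcription factors, had no called change in fetuses. ATF5 is a relative of ATF4 that is also controlled at translation, and DDIT3 (CHOP) is a C/EBP family factor known for promoting cell death when stress persists. The Atf5 ratios were -0.38, -0.91 and 0.24 in the 3 fetal pairs, a mean of -0.35 ± 0.57 (SD, n = 3; adjusted p = 0.280), so the second pair of pools of 3 went the other way. Without that pair the Atf5 value was -0.64 and was called (adjusted p = 0.0267), and without the first pair of pools of 3 it was -0.07 (adjusted p = 0.824). In mothers Atf5 stood at -0.68, with -0.45 and -0.92 on the 2 arrays, which is under 2-fold on both. The Ddit3 ratios were -0.11, -0.13 and -0.16 in fetuses, a mean of -0.13 ± 0.02 (adjusted p = 0.0891), and -0.47 in mothers.

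Of the members that make amino acids, Asns was the one called for a larger response in mothers than in fetuses. It encodes asparagine synthetase, a textbook ATF4 target that is induced when amino acids are scarce. Its probe (A_51_P125745, chr6:7625194-7625253 in mm9, minus strand) had a log2 level of 8.40 in the control maternal pool and 9.47 in the FR maternal pool. The maternal ratio was 1.06, a 2.09-fold higher level under FR, from 1.14 with FR in Cy3 and 0.99 with FR in Cy5. The second array missed 2-fold by a small margin, and with a background offset of 10 or with the deposited processed signals both arrays passed it. In fetuses the control levels were 14.19, 14.26 and 14.09 and the FR levels 14.47, 14.38 and 14.31. Every FR fetal pool lay above every control fetal pool, but the step was small, with ratios of 0.28, 0.12 and 0.22 and a mean of 0.21 ± 0.08 (SD, n = 3; adjusted p = 0.0426). This fetal call was lost when any 1 of the 3 pairs was left out (adjusted p = 0.191 without the pools of 6, 0.0649 and 0.111 without the first and second pair of pools of 3). It was lost too with an offset of 10, without loess and with the deposited signals, where the ratio ranged from 0.08 to 0.21.

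The serine synthesis genes Psat1 and Phgdh had no called change in fetal liver over the 3 pool pairs, though calls appeared under some alternatives. PHGDH catalyses the first step from glycolysis into serine and PSAT1 the next. The Psat1 ratios were 0.38, 0.54 and -0.08 in the fetal pairs, with a mean of 0.28 ± 0.32 (SD, n = 3; adjusted p = 0.160). Here too the second pair of pools of 3 stood apart, and without it Psat1 was at 0.46 and called (adjusted p = 0.0140), while without the first pair of pools of 3 it was at 0.15 (adjusted p = 0.493) and without loess at 0.14 (0.569). The 3 Phgdh probes gave fetal means of 0.22 ± 0.11, 0.19 ± 0.11 and 0.12 ± 0.10, with adjusted p of 0.0532, 0.0646 and 0.167. All 9 Phgdh pair values were above 0. The first of these probes, A_51_P408729, was called without the second pair of pools of 3 (0.28, adjusted p = 0.0349) and with the 6 arrays entered singly and the pool pair as a random block (0.22, adjusted p = 0.0177). Without loess it stood at 0.07 (adjusted p = 0.714). In mothers the 2 Phgdh probes above background stood at 0.08 and -0.02, and Psat1 at 0.35, or 1.09 with the deposited signals. The last 17 letters of probe A_51_P408729 are the first 17 of A_51_P408732, so these are not independent readings, and the array annotation lists 2 predicted noncoding transcripts for each Phgdh probe, whose signal cannot be told apart from that of Phgdh.

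Chac1 was higher under food restriction in mothers and had no called change in fetuses. It encodes an enzyme that breaks down glutathione and is among the ATF4 targets that respond most sharply in cultured cells. Its probe (A_51_P134812, chr2:119179990-119180049 in mm9, plus strand) had a log2 level of 9.17 in the control maternal pool and 10.93 in the FR maternal pool. The maternal ratio was 1.76, or 3.40-fold, from 1.56 with FR in Cy3 and 1.97 with FR in Cy5. Chac1 was the only member past 2-fold on both maternal arrays, 1 of the 12 member probes that passed in mothers, against 1.00% of 28326 probes higher and 1.03% lower over the array. Without loess it was at 1.74 but not past 2-fold on both arrays. With 1 maternal pool per diet there is no test of this value. The control fetal pools had levels of 7.65, 7.72 and 7.63 and the FR pools 7.54, 7.33 and 7.62. The fetal ratios of -0.11, -0.39 and -0.01 gave a mean of -0.17 ± 0.20 (SD, n = 3), which was not called (adjusted p = 0.192).

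Sesn2 and Ppp1r15a, members with a feedback role, had no called change. Sesn2 encodes sestrin 2, a leucine sensor that restrains mTORC1, and its 2 probes, which do not overlap, stood at 0.23 and 0.61 in mothers. In fetuses they were at -0.07 ± 0.03 and 0.06 ± 0.17 (SD, n = 3), with adjusted p of 0.274 and 0.587. Ppp1r15a encodes GADD34, the phosphatase subunit that reverses eIF2 phosphorylation. Its fetal ratios were 0.09, 0.34 and -0.16, a mean of 0.09 ± 0.25 (adjusted p = 0.542), and its maternal ratio was 0.24.

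Chac1 and Asns were the members whose maternal response was called larger than the fetal one. The maternal minus fetal difference in log2 ratio was 1.93 (SE 0.17) for Chac1 (adjusted p = 0.0133) and 0.86 (SE 0.11) for Asns (adjusted p = 0.0261), by limma over the 4 pool pairs, with the lone maternal pair assumed to vary like the fetal pairs. They were 2 of the 12 member probes tested, and none was called lower, against 1.59% of 27476 probes higher and 1.59% lower. The members were chosen with earlier results of these data known, so these shares are a description only. The calls of Chac1 and Asns were both lost in each of 2 alternatives, and that of Asns in 1 more. With slide as a fixed term, so that only the maternal and fetal pools of 6 on the first slide were compared, the differences were 1.88 and 0.79 with adjusted p of 0.172 and 0.215. Without the fetal pools of 6 they were 1.96 and 0.89 with adjusted p of 0.104 and 0.122. In each of these 2 settings no probe of the whole array was called. Without loess the Asns difference was 0.98 and not called (adjusted p = 0.107). Asns had no value for this difference when spots marked non-uniform were left out.

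The largest values among the members were differences of level between control mothers and control fetuses, not effects of diet. The enzymes of asparagine and serine synthesis were far higher in fetal liver, Ppp1r15a was higher there too, and Chac1 was higher in the mother. Of the 13 member probes 7 were called lower in mothers and 1 higher, a share of 53.8% and 7.69%. Over the array 20.2% of 30531 probes were called lower and 21.0% higher. The 7 include every Phgdh probe, so that gene is counted more than once in the share. A probe entered the level test if its control channel was well above background on all maternal or on all fetal arrays. Phgdh probe A_52_P661606 entered through the fetal arrays alone, where it is high, so its call adds no support. The members were chosen with earlier results of these data known, so the shares are a description only. The test was limma on the log2 level of the control channel with a slide term, which makes the difference that between the maternal and fetal pools of 6 on the first slide, and its spread comes from the 2 fetal control pools of the second. So the lone maternal pool is assumed to vary as those do.

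**Figure D2:**
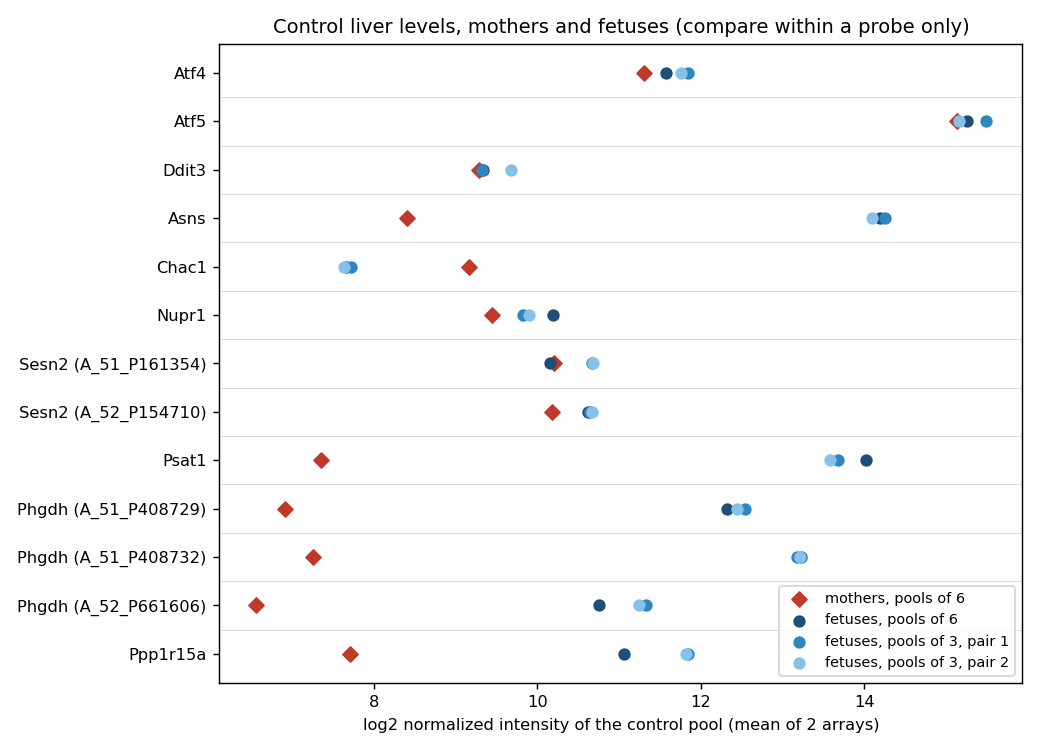
The horizontal axis is the log2 normalized intensity of the control channel, mean of 2 dye-exchanged arrays, for each of the 13 member probes. Red diamonds are the maternal pool and blue circles the 3 fetal pools. The maternal diamond lies far to the left for Asns, Psat1, Phgdh and Ppp1r15a, to the right for Chac1, and within or near the fetal pools for Atf4, Atf5, Ddit3 and Sesn2. Levels of different probes cannot be compared.

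Psat1 had the widest gap. Its probe (A_51_P317427, chr19:15979970-15980029 in mm9, minus strand) had a log2 level of 7.36 in the control mothers and 14.02, 13.68 and 13.58 in the control fetal pools. The difference within the first slide was -6.66, a level 101-fold higher in fetuses (adjusted p = 0.000426). Over the alternatives that gave a value it ranged from -7.82 to -6.40. The Psat1 spots of the fetal pools of 6 were marked non-uniform, as were those of Asns and Phgdh. Without such spots none of these genes had a level difference. On the second slide the spots of these genes carried no such mark. Asns stood at 8.40 in mothers against 14.09 to 14.26 in fetuses, a difference of -5.79 or 55.2-fold (adjusted p = 0.000467), which ranged from -6.29 to -5.78 over the alternatives that gave a value.

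The 3 Phgdh probes gave the same direction. The first 2 had maternal levels of 6.92 and 7.25 and fetal levels of 12.33 to 12.54 and 13.18 to 13.22, with differences of -5.41 and -5.97, or 42.5-fold and 62.6-fold (adjusted p = 0.000456 and 0.000426). Over the alternatives that gave a value they ranged from -7.04 to -5.41 and from -7.21 to -5.95, with the widest gaps from the deposited signals. The third, A_52_P661606, has 1 forward reading frame without a stop codon. Its 60 bases cover 709 bases of the genome (chr3:98118326-98119034 in mm9, minus strand), so it crosses an intron.
Phgdh probe: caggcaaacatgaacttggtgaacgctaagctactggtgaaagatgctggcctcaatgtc
This probe was not well above background on either maternal array in either diet and so has only a bound there. On the first slide it was at least 18.4-fold higher in fetuses, from the maternal level or, where higher, the dimmest signal that was well above background. It passed the level filter through the fetal arrays alone, so no p-value is given for it. The first 2 probes overlap, and the third shares no annotated bases with them.

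Ppp1r15a had a maternal level of 7.71 and fetal levels of 11.06, 11.84 and 11.82. Its probe (A_51_P302503, chr7:52779582-52779641 in mm9, minus strand) has 2 forward reading frames without a stop codon.
Ppp1r15a probe: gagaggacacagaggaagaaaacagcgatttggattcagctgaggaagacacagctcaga
The difference was -3.35, or 10.2-fold (adjusted p = 0.000707; -4.02 with the deposited signals), and the fetal pool of 6, which shares the slide with the mothers, was the lowest of the 3. Nupr1 was 9.44 in mothers and 9.83 to 10.19 in fetuses, a called difference of -0.75 (adjusted p = 0.0151) that was lost without the slide term (-0.53, adjusted p = 0.105). Chac1 ran the other way, at 9.17 in mothers and 7.63 to 7.72 in fetuses, a difference of 1.51 or 2.85-fold (adjusted p = 0.00313; 2.11 with the deposited signals).

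The transcription factors and Sesn2 had no called difference of level. The values were -0.27 for Atf4 (adjusted p = 0.175), -0.13 for Atf5 (0.643), -0.05 for Ddit3 (0.876), and 0.06 and -0.44 for the 2 Sesn2 probes (0.744 and 0.0513). Without loess, Atf4 was at -0.46 (adjusted p = 0.0452) and the second Sesn2 probe at -0.60 (0.0230), and both were called. Cell type markers differed in level as well: the erythroid markers summed to 16.26 in control mothers and 18.37 to 18.87 in control fetuses, the granulocyte markers to 11.79 and 18.52 to 18.58, and the hepatocyte markers to 19.64 and 19.39 to 19.61. The maternal erythroid and granulocyte sums include markers that did not pass in mothers. The part of the cell type markers in these differences of level was not tested.

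The other genes of the pathway gave the setting, each read from its brightest probe that passed. Over all genes, 11.4% of 21120 were called higher and 14.2% lower in FR fetuses, and 1.01% of 19527 were past 2-fold higher and 1.17% lower on both maternal arrays. Read the same way, the 10 members had 1 gene higher and 2 lower in fetuses and 1 higher in mothers, with medians of -0.03 and 0.18. The medians over all genes were 0.01 in fetuses and 0.00 in mothers.

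Of 16 genes of eIF2, its kinases, eIF2B and their regulators, 3 were called higher in fetuses and none lower, with a median of 0.02. These were Eif2s3x, a subunit of eIF2, at 0.34 ± 0.03 (SD, n = 3), and the exchange factor subunits Eif2b2 at 0.26 ± 0.06 and Eif2b1 at 0.18 ± 0.05, with adjusted p of 0.0100, 0.0199 and 0.0490. The kinase gene Eif2ak2 (PKR) was at -0.58 ± 0.46 (adjusted p = 0.0635), and Dnajc3, an inhibitor of the kinases, at -0.26 ± 0.24 (adjusted p = 0.114). None of the 15 that passed in mothers was past 2-fold on both arrays, and the farthest were Eif2b4 at -0.92, the heme-regulated kinase Eif2ak1 at 0.43 and Eif2b2 at 0.42.

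Among 14 other factors linked to ATF4, 4 were called higher and 3 lower in fetuses, with a median of 0.06. Trib3, a pseudokinase that ATF4 and CHOP induce and that feeds back on them, was at 0.79 ± 0.10 in fetuses (adjusted p = 0.00482) and 3.04 in mothers, where it was past 2-fold on both arrays. Ddit4, an mTORC1 inhibitor, was at 1.22 ± 0.25 in fetuses (adjusted p = 0.00512) and 0.57 in mothers. Cebpb, a C/EBP factor, was at 0.29 ± 0.06 (adjusted p = 0.0169) in fetuses and 1.91 in mothers, past 2-fold on both arrays. Nfil3, a leucine zipper repressor, was at -0.35 ± 0.18 (adjusted p = 0.0333) in fetuses and -2.72 in mothers, lower on both arrays. Vegfa, the endothelial growth factor, was at -0.49 ± 0.06 in fetuses (adjusted p = 0.00699) and -0.15 in mothers, and Cebpg, a partner of ATF4, was at -0.48 ± 0.41 (adjusted p = 0.0756) and -0.40. The remaining called genes, named after their values were seen, were Gdf15, a secreted stress factor, at 0.27 ± 0.15 in fetuses and -1.01 in mothers, and Eif4ebp1, an inhibitor of translation initiation, at -0.24 ± 0.03 in fetuses and 0.78 in mothers. Their maternal minus fetal differences were -1.29 (adjusted p = 0.0200) and 1.03 (0.0147). In mothers 2 of the 14 were past 2-fold higher and 2 lower, with a median of -0.03, the second lower one being Bbc3, a cell death gene, at -1.31.

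**Figure D3:**
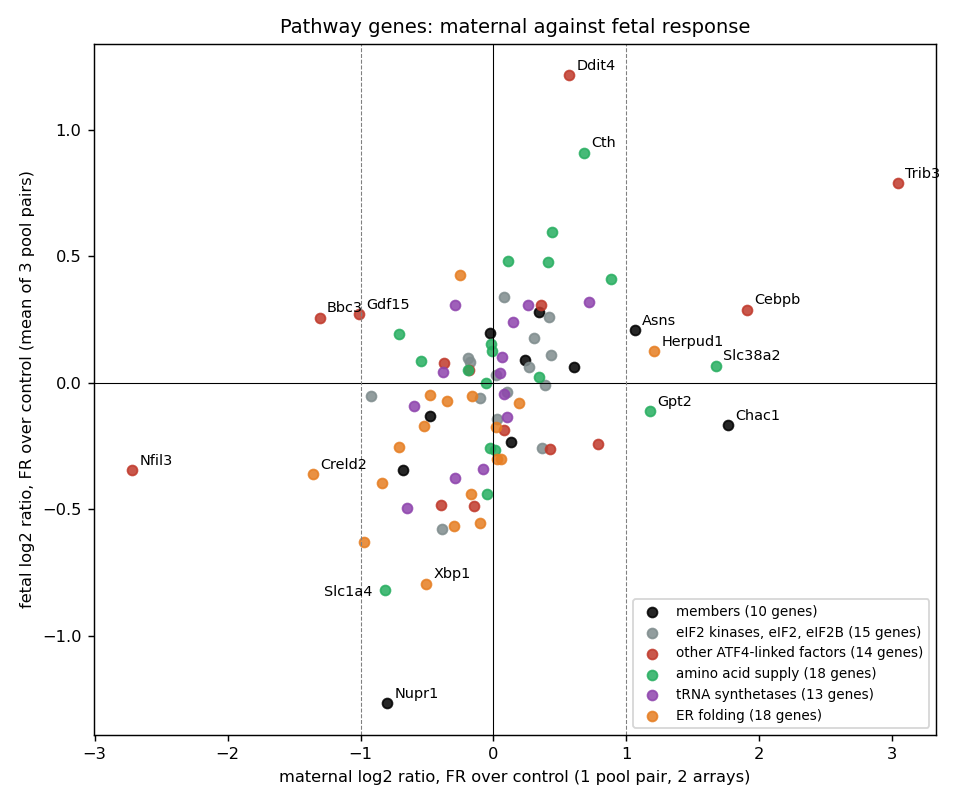
Each point is a gene of the members or of a pathway list that passed in both mothers and fetuses, with the maternal log2 ratio of FR over control (1 pool pair) on the horizontal axis and the fetal ratio (mean of 3 pool pairs) on the vertical axis. Dashed lines mark 2-fold in mothers, and genes past 2-fold in mothers or past 0.75 in fetuses are named. Trib3, Cebpb, Chac1, Slc38a2, Herpud1, Gpt2 and Asns lie to the right of the dashed line, and Nupr1 is the lowest point.

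The genes of amino acid uptake and synthesis were split. Of 20 such genes on the array 19 passed in fetuses, where 5 were called higher and 4 lower, with a median of 0.09. The higher ones included the cationic amino acid transporter Slc7a3, which was not above background in mothers, at 1.06 ± 0.28 (adjusted p = 0.00715), Cth, which makes cysteine, at 0.91 ± 0.34 (0.0115), Psph, the last enzyme of serine synthesis, at 0.60 ± 0.28 (0.0202) and the leucine transporter Slc7a5 at 0.48 ± 0.15 (0.0122). Mthfd1l, an enzyme of mitochondrial folate metabolism, was at 0.41 ± 0.09 in fetuses (0.0104) and 0.88 in mothers. The neutral amino acid transporter Slc1a4 fell to -0.82 ± 0.11 in fetuses (0.00475) and stood at -0.81 in mothers. The other 3 called lower in fetuses, named after their values were seen, were Mthfd2 at -0.44 ± 0.09, Aldh1l2 at -0.27 ± 0.03 and Pycr1 at -0.26 ± 0.13. In mothers 1 of 18 was past 2-fold on both arrays, Slc38a2, a transporter of small neutral amino acids, at 1.67, where the fetal ratio was 0.07 ± 0.11 (0.454). The alanine aminotransferase gene Gpt2 was at 1.18 in mothers but not past 2-fold on both arrays, and at -0.11 ± 0.16 in fetuses (0.308). Its maternal minus fetal difference was 1.29 (adjusted p = 0.0221), above that of Asns.

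Of 13 tRNA synthetase and tRNA export genes, 3 were called higher and 3 lower in fetuses, with a median of 0.04, and none was past 2-fold in mothers. Cars was at -0.50 ± 0.14 (adjusted p = 0.0104), Yars at -0.38 ± 0.06 (0.00978), Iars at -0.34 ± 0.10 (0.0162) and Gars at 0.31 ± 0.05 (0.0134), which charge tRNAs with cysteine, tyrosine, isoleucine and glycine. The other 2 called higher, named after their values were seen, were the tryptophan enzyme Wars at 0.31 ± 0.08 and the leucine enzyme Lars at 0.24 ± 0.08. The tRNA exporter gene Xpot was at 0.32 ± 0.21 (0.0538) in fetuses and 0.72 in mothers. In mothers Cars stood at -0.65 and Tars, the threonine enzyme, at -0.60.

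The unfolded protein response, a related pathway, controls genes of protein folding in the endoplasmic reticulum. Of 18 such genes 10 were called lower and 1 higher in FR fetuses, with a median of -0.28. In the same fetal pools the hepatocyte markers (5 of 9 called lower, median -0.31) and the B lineage markers (7 of 9, median -0.81) were lower too, and their part in these values was not tested. The higher one, named after its value was seen, was the lectin chaperone Canx at 0.42 ± 0.02. Xbp1, the transcription factor of that response, was at -0.79 ± 0.21 (SD, n = 3; adjusted p = 0.00763), and Edem1, which sends misfolded proteins to degradation, was at -0.63 ± 0.26 (0.0148). The chaperone and disulfide isomerase genes Dnajb9, Pdia6 and Hsp90b1 were at -0.57 ± 0.12, -0.56 ± 0.08 and -0.44 ± 0.08. In mothers the median was -0.27, and on both arrays 1 of the 18 was past 2-fold lower, Creld2 at -1.36, and 1 higher, Herpud1, a component of protein degradation at the endoplasmic reticulum, at 1.21. Edem1 stood at -0.97 in mothers.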

How the data were processed

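Per the file headers, the deposited scanner files hold Cy3 and Cy5 intensity from Agilent Feature Extraction 9.5.3.1 (slide 1: mothers and fetal pools of 6; the version the submitters' processing notes name) or 11.0.1.1 (slide 2: fetal pools of 3). The deposited series-wide values, in log10 units (Cy5 over Cy3, not turned for dye), matched the scanner files' processed signals within 5e-08. Its column medians ran from -0.0184 to 0.0155. Flags per spot came with the files. Per the labels, 1000 ng of RNA was labelled. Median raw intensity per array was 69.1 to 284 in Cy3 and 122 to 310 in Cy5, with local background of 46 to 68, and the number of arrays limits the precision.

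In R 4.3.3 with limma 3.58.1, statmod 1.5.0, data.table (version 1.17.8) and jsonlite 2.0.0, mean (slide 1) or median (slide 2) spot signals were corrected by normexp (offset 50) and loess (control spots at weight 0), turned to log2 FR over control, and averaged over spots and over the 2 arrays of a pair. Levels were scaled between arrays by Aquantile. Population outliers were left out. Spots marked non-uniform were kept, because the mark covers 78.8% to 87.3% of the brightest 10% of spots on each slide 1 array. Turned ratios of the 2 dyes correlated at 0.607 to 0.851 across probes. Scripts were tested on simulated data. Members and lists were chosen with earlier results of these data known. Named genes are all members, up to 5 genes per pathway list by fetal and 3 by maternal size, and the 3 genes nearest in pattern to the member with the largest fetal change. Probe positions are those of the array annotation (mm9).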

Additional observations from a re-analysis of the deposited data

Results flagged for a closer look

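Asns and Chac1 were called for the difference between the maternal and fetal responses, in a test whose maternal arm is 1 pool pair. The maternal minus fetal log2 response was 0.86 for Asns (ratio over 1 on 1 of 2 maternal arrays, above 0 on all 6 fetal arrays) and 1.93 for Chac1 (over 1 on both maternal arrays, and below 0 in all 3 fetal pairs). Both calls were lost with slide as a fixed term (adjusted p = 0.215 for Asns and 0.172 for Chac1, by limma) and without the fetal pools of 6 (0.122 and 0.104), where no probe of the array was called, and the Asns call was lost without loess (0.107). No group held the 4 pool pairs that a test for an outlying sample needs.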

How the results depend on the processing

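Nupr1 was called lower in fetuses in every alternative run, from -1.38 to -1.22 with adjusted p of 7.96e-05 to 0.0472, and no value that was called changed sign. Of 365 single-probe values under the alternatives, 324 kept direction and side of the threshold, 17 fell short of it, 10 newly passed it, and 14, called in neither setting, changed sign. The 3 member probes called in fetuses became 1 to 5 when a fetal pair was left out, 1 without loess, and 1 without the non-uniform spots, where 6 member probes had a value. The 1 past 2-fold in mothers became 2 on either array alone, 2 with an offset of 10, 2 with the deposited signals and 0 without loess, where Chac1 was at 1.74 but not past 2-fold on both arrays. The 2 called for maternal minus fetal response became 0 to 2 when a fetal pair was left out, 0 with slide as a fixed term, 1 without loess and 1 without the non-uniform spots. The 8 called for control level became 3 without those spots, where again 6 had a value. Where fewer probes had a value the cause is the spots left out, and otherwise the cause was not tested. Slide as a random block could not be fitted. Levels could not be fitted without a fetal pair, since slide and tissue or the residual degrees of freedom are then lost.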
